A study of Rattus norvegicus with 9 samples.

Results

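Voltage-gated and potassium ion channels of the rat heart were followed in 9 RNA sequencing libraries, 3 from fetal ventricle, 3 from pressure-overloaded adult left ventricle (TAC) and 3 from sham-operated adult left ventricle. The genes were taken by name: every gene symbol in the deposited tables that begins as the potassium (Kcn), sodium (Scn), voltage-gated calcium (Cacna, Cacnb, Cacng), Clc-type chloride (Clcn) or pacemaker (Hcn) channel families do. This gave 97 channel genes among 24665 loci of at least 200 nt. Of these, 40 reached a value of 1 or more in 3 libraries and were tested, among 14120 loci of the whole series that did so. Several known heart channel genes, such as Cacna1c, Kcnj2 and Kcnd3, were not found under a symbol and are not analysed here.

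All rats were Sprague-Dawley. Fetal libraries came from ventricles at embryonic day 18, with titles that number them as litters, and their RNA was isolated with Trizol. TAC libraries came from the left ventricle of adults whose transverse aorta had been narrowed, an operation that makes the heart pump against raised pressure. Sham libraries came from adult left ventricle after the same operation without narrowing, and both adult groups were isolated with a column kit for fibrous tissue. Neither the time after surgery nor whether each adult library is a separate animal is stated in the labels, so p-values for adults may measure technical spread only. Age, region of the heart and RNA isolation differ together between fetal and adult groups and cannot be told apart. The study's question was which splice forms of the fetal heart reappear under pressure overload.

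Each heartbeat is an action potential shaped by these proteins in turn. Sodium channels open first and give the fast upstroke, calcium channels hold the plateau and trigger contraction, and potassium channels bring the cell back to rest. Pore-forming subunits carry the ions, while accessory subunits (the sodium channel beta subunits, Kcnip2 and the small Kcne proteins) set how many pores reach the membrane and how fast they open and close. In rodent ventricle repolarization is fast and relies on the transient outward potassium current.

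Values are FPKM (fragments per kilobase of transcript per unit of sequencing depth) rescaled so that libraries can be compared, and a log2 difference is always taken on log2(value + 1), which understates changes of weak genes. A gene was called when its Benjamini-Hochberg adjusted p over all 14120 loci, from limma's moderated test, was below 0.05. The confidence bounds in the files imply a median of 430 to 612 fragments per tested locus in the fetal libraries, 115 to 235 in TAC and 240 to 365 in sham, so weak genes are measured less precisely in TAC. Actc1, cardiac actin and the cardiomyocyte marker found by symbol among 13 listed, stood at 14020, 135400 and 18890 in fetal ventricle, at 27140, 20950 and 22940 in TAC and at 21120, 20980 and 24160 in sham. The first principal component (57.2% of the variance) separated fetal from adult libraries and the second (16.99%) set the libraries numbered 1 apart from those numbered 2 and 3. The libraries numbered 1 also differ in their assembly, whose shortest feature has 43 nt against 63 nt elsewhere, so calls were repeated on numbers 2 and 3 alone and with the number as a block.

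Between fetal and sham ventricle 18 of the 40 tested channel genes differed, 4 higher and 14 lower in fetal. The share is close to the background, since 45.7% of all tested loci were called, 22.5% higher and 23.2% lower. The median log2 difference was -0.31 over the 40 channel genes and 0.04 over all loci. In 27 of the 40 channel genes the 3 fetal libraries did not overlap the 3 sham libraries (9 higher, 18 lower), against 58.1% of all loci (29.2% higher, 28.8% lower). Of these 27, 9 did not pass the test: Cacng4, Kcnmb1, Kcnj15 and Kcna5 with lower fetal values and Kcnab1, Kcne3, Scn2b, Scn3b and Kcna4 with higher ones. These separations include transcripts assembled from the reads. On reference transcripts alone Kcnab1 lay lower in every fetal library than in any sham library, and the others of the 9 overlapped. In bulk tissue, fewer cells of a type and less RNA per cell cannot be told apart in any of these differences.

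Accessory subunits weighed far more in the adult level. The values of all 97 genes summed to 203.1, 226.7 and 238.0 in fetal libraries, to 1378, 1250 and 1208 in TAC and to 1643, 1579 and 1473 in sham. Kcnip2 alone made up 6.76% to 17.7% of that sum in fetal libraries, 47.2% to 52.4% in TAC and 51.1% to 62.5% in sham. Scn4b made up 0.382% to 0.73% in fetal libraries, 5.49% to 7.33% in TAC and 3.5% to 6.04% in sham. By group mean, the order in fetal ventricle began with Kcnh2, Kcnip2, Kcnq1, Kcnj5 and Clcn5, while in both adult groups Kcnip2 came first and Scn4b, Kcnq1 and Kcnj8 took ranks 3 to 5. In fetal ventricle Kcnh2, Kcnip2 and Kcnq1 overlapped between libraries, so their order does not exceed the spread.

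**Figure D1:**
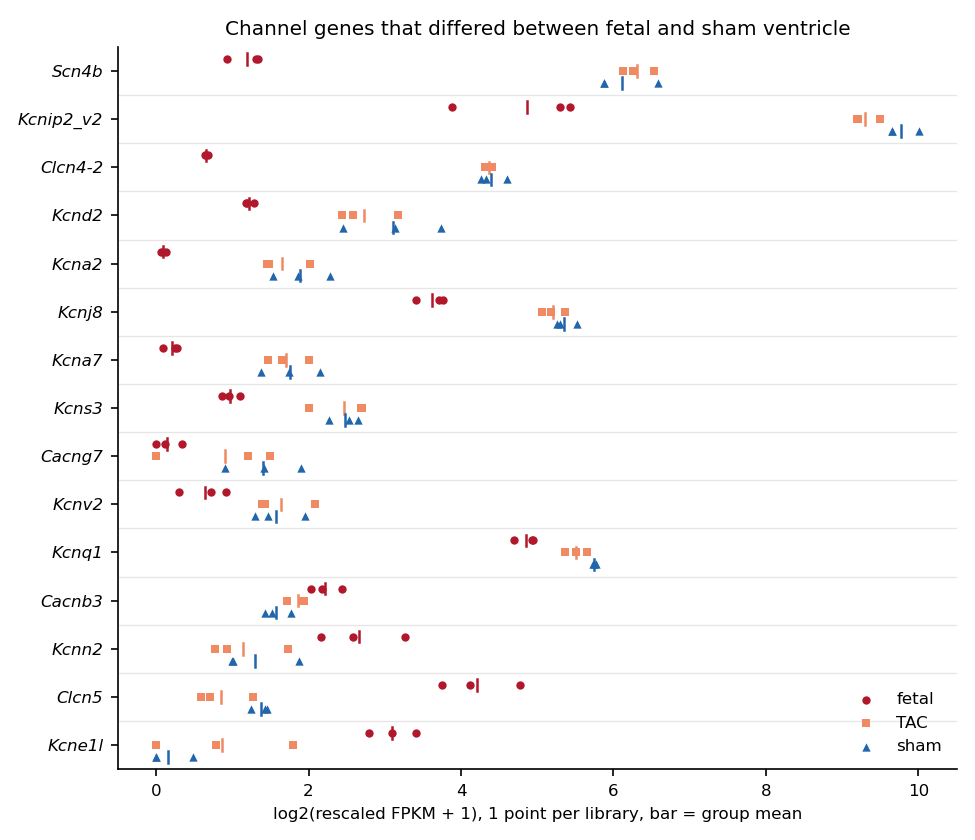
Values of 15 of the 18 channel genes that differed between fetal and sham ventricle, 1 point per library on log2(rescaled FPKM + 1), with short bars for group means. Scn4b, Kcnip2 (Kcnip2_v2 in the files) and Clcn4-2 have fetal points far left of both adult groups, while Clcn5 and Kcne1l have fetal points right of them.

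The DNA just before the start of a gene is shown for genes that fell or rose strongly and have an entry in RefSeq's promoter table (build GRCr8, not the rn4 build of the files). Of the 97 genes, 62 have an entry there (66 entries, since some genes have more than 1 start), Kcnip2_v2 being looked up as Kcnip2, Kcne1l as Kcne5 and Clcn4-2 as Clcn4. Each line gives the 250 bases before the annotated start, 5′ to 3′ on the gene's strand, and capitals mark the GC box, GGGCGG or its complement CCGCCC, a motif bound by Sp-family factors.
Scn4b, chr8:54343623-54343872, plus strand: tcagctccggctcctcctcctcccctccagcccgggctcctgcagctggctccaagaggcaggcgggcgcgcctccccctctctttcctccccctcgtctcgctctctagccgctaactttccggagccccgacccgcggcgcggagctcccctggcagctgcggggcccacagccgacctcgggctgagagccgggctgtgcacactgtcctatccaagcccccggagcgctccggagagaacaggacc
Kcnip2, chr1:254613899-254614148, minus strand: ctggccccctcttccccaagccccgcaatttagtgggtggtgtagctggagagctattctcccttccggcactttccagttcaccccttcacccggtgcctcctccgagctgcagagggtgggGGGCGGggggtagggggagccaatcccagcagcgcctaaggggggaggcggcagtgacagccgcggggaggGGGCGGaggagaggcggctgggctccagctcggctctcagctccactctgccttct
Clcn5, first start, chrX:17857010-17857259, plus strand: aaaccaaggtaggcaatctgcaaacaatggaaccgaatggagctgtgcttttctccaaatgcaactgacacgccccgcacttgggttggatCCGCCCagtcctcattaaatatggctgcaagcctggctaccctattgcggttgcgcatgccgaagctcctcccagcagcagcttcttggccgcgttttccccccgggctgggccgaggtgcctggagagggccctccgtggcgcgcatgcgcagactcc
Clcn5, second start, chrX:17979730-17979979, plus strand: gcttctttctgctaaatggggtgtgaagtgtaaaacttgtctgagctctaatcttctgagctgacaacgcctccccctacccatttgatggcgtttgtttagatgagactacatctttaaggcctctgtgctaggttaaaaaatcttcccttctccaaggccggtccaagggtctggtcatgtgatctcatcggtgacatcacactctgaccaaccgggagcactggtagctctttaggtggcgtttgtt
Kcne5, chrX:110727850-110728099, minus strand: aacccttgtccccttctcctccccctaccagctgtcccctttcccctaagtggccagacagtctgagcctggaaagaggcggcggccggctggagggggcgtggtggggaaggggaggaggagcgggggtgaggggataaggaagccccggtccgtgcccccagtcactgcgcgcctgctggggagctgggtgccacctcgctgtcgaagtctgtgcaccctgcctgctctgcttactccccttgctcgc
The window of Scn4b is 71.6% G or C and holds no match, and that of Kcnip2 (68.0%) holds 2. The first start of Clcn5 holds 1 match, while its second start (48.0%) and Kcne5 (67.6%) hold none. On either strand the GC box was present in 6 of 9 entries of genes lower in fetal and in 2 of 5 entries of genes higher in fetal. It was in 5 of 16 entries of tested genes not called, in 30 of the 66 entries of all channel genes (45.5%) and in 30.5% of all 33469 entries. The TATA box TATAAA, whose letters cannot overlap the GC box, was in no entry of a tested gene, called or not, in 2 of the 66 entries of all channel genes and in 12.9% of all entries. These are descriptions of letters, with no test.

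Sodium channel beta subunits anchor the pore, speed its gating and help it reach the membrane. Scn4b, the beta subunit that allows resurgent sodium current in neurons, stood at 1.48, 1.54 and 0.909 in fetal ventricle, at 75.6, 91.6 and 68.7 in TAC and at 57.5, 95.4 and 57.7 in sham. The fetal libraries lay far below both adult groups (-4.92 ± 0.23, adjusted p = 3.22e-06; chr8:48091561-48106735). Scn2b, which lies 12.9 kb before Scn4b on the same chromosome, had 2.05, 2.30 and 1.81 in fetal ventricle, 0.997, 0.277 and 0.851 in TAC and 1.04, 0.322 and 1.12 in sham. Its fetal libraries lay above all adult ones, but the difference did not pass against sham (0.77 ± 0.28, adjusted p = 0.0505). It passed with libraries scaled to equal totals (0.0389). Transcripts assembled from the reads made up 55.6% of its value in fetal 2, 75.6% in fetal 3 and none in any adult library. On reference transcripts alone fetal ventricle had 2.05, 1.02 and 0.440, which overlapped both adult groups, and the difference from sham was not called. Scn3b had 3.46, 3.15 and 2.96 in fetal ventricle and 2.66, 1.78 and 0.908 in sham (0.64, adjusted p = 0.097). On reference transcripts alone its fetal and sham libraries overlapped.

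Among sodium channel pores only Scn4a, the skeletal muscle pore, was tested. It had 1.499, 0.536 and 0.484 in fetal ventricle, 0.251, 1.36 and 1.97 in TAC and 0.870, 0.862 and 2.24 in sham, with overlapping groups (-0.33, adjusted p = 0.54).

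The transient outward current is carried by Kcnd pores that need Kcnip2, a calcium-binding partner, for their surface number and kinetics. Kcnip2 stood at 13.7, 38.5 and 42.1 in fetal ventricle, at 722, 589.8 and 586 in TAC and at 1027, 807 and 805 in sham. It was the highest channel gene of both adult groups, and its sham mean was 28.0 times the fetal mean (-4.90 ± 0.37, adjusted p = 2.19e-05; chr1:251008679-251032459). Kcnd2, the pore that Kcnip2 serves, had 1.44, 1.27 and 1.295 in fetal ventricle, 4.42, 5.00 and 8.06 in TAC and 4.46, 12.3 and 7.80 in sham. Fetal libraries lay below all adult ones (-1.88 ± 0.34, adjusted p = 0.00227), but on reference transcripts alone the call was lost (-1.20, adjusted p = 0.31). Kcnd1, a related pore named outside the rule for named genes, had 1.47, 1.42 and 1.58 in fetal ventricle and 1.44, 0.641 and 0.983 in sham, without a call (0.32, adjusted p = 0.51). Kcna4, the pore of the slowly recovering transient outward current, had 4.42, 3.30 and 3.66 in fetal ventricle and 2.999, 2.79 and 2.82 in sham. The groups did not overlap, but the difference was small and not called (0.30 ± 0.22, adjusted p = 0.29). On its reference transcript alone they overlapped, with 0, 0.952 and 3.66 in fetal ventricle and 2.999, 2.79 and 0 in sham.

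Further Kv genes fell with Kcnd2. Kcns3 and Kcnv2 are silent subunits, which carry no current alone but change that of Kcnb pores. Kcns3 averaged 0.970 ± 0.159 in fetal ventricle, 4.65 ± 1.42 in TAC and 4.61 ± 0.742 in sham (SD, n = 3 each; -1.50, adjusted p = 0.0014).

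Kcnv2 averaged 0.589 ± 0.332 in fetal ventricle and 2.02 ± 0.740 in sham (SD, n = 3 each; -0.92, adjusted p = 0.0344). With replicate number as a block its adjusted p was 0.05, not below the threshold, and it was not called after leaving out any of the 3 fetal libraries, sham 2 or sham 3 (0.0507 to 0.126). Kcna2 had 0.0992, 0.0655 and 0.0442 in fetal ventricle, 1.73, 1.79 and 3.07 in TAC and 2.63, 3.88 and 1.90 in sham (-1.80 ± 0.27, adjusted p = 0.000829; -1.04 and 0.21 on reference transcripts alone). Kcna7, a muscle Kv pore, had 0.0687, 0.206 and 0.193 in fetal ventricle and 1.60, 2.34 and 3.42 in sham (-1.55 ± 0.26, adjusted p = 0.00165). All 3 of Kcns3, Kcna2 and Kcna7 lay lower in each fetal library than in any adult library.

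Kcna5, the pore of the ultrarapid delayed rectifier, varied widely between libraries. It had 3.30, 0.223 and 1.12 in fetal ventricle, 3.59, 10.6 and 5.11 in TAC and 3.397, 4.94 and 4.33 in sham, and was not called against sham (-1.21 ± 0.49, adjusted p = 0.0734). Without fetal 1, the highest fetal library, it was (adjusted p = 0.0197).

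Of the pores of the heart's rapid and slow delayed rectifiers, Kcnq1 fell and Kcnh2 was not called. Kcnh2, the pore of the rapid one, had 24.9, 32.4 and 39.2 in fetal ventricle, 24.0, 27.8 and 28.7 in TAC and 25.6, 33.7 and 35.2 in sham. All groups overlapped (0.02 ± 0.20, adjusted p = 0.95). Kcnq1, the pore of the slow one, had 24.9, 29.8 and 29.6 in fetal ventricle, 44.5, 49.2 and 40.2 in TAC and 52.7, 52.1 and 53.4 in sham. Each group was separate from the others, with fetal ventricle lowest (-0.89 ± 0.13, adjusted p = 0.000685; chr1:203383401-203472247). On reference transcripts alone it was not called (-0.57, adjusted p = 0.81), and TAC overlapped both other groups. The library kit does not mark strand, so reads of an antisense transcript within Kcnq1, known in mouse as Kcnq1ot1, cannot be told apart from its own.

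Of the Kcne proteins, small membrane subunits that modify Kcnq1 and other pores, Kcne1l (Kcne5) was the called one. It had 5.93, 9.63 and 7.56 in fetal ventricle, 2.46, 0.726 and 0 in TAC and 0, 0 and 0.402 in sham (log2 difference 2.94 ± 0.43, adjusted p = 0.000774; chrX:36244029-36244605). Fetal libraries held 140, 169 and 184 fragments of it, against 5, 2 and 0 in TAC and 0, 0 and 3 in sham, so the fitted difference depends on the pseudocount. In the 3 fetal libraries its whole value came from assembled transcripts of 1423 to 1443 nt, and in adult libraries from the reference transcript of 577 nt. What part this difference in transcript length plays was not tested.

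Kcne3, an activator of Kcnq1 in epithelia, had 4.68, 2.03 and 2.19 in fetal ventricle, 0.958, 0 and 0.444 in TAC and 1.52, 0.822 and 0.797 in sham. Against sham it was not called (0.91 ± 0.35, adjusted p = 0.0627), but with replicate number as a block it was (0.0187). In fetal 3, 76.7% of its value came from assembled transcripts. Its reference transcript alone differed by 0.55, not called. Kcne4, an inhibitor of Kcnq1, had 3.39, 1.96 and 3.12 in fetal ventricle and 3.30, 1.40 and 0.869 in sham (0.49, adjusted p = 0.25). Its fetal values were 100%, 100% and 61.1% from assembled transcripts and its adult values from the reference transcript. That transcript alone differed by -1.04, not called. Kcne1, the classical partner of Kcnq1, averaged 1.03 ± 0.372 in fetal ventricle and 1.18 ± 0.396 in sham (SD, n = 3 each), with overlapping groups (adjusted p = 0.89). Kcnab1, a beta subunit of Kcna pores, averaged 1.11 ± 0.208 in fetal ventricle and 0.675 ± 0.131 in sham (SD, n = 3 each; 0.33, adjusted p = 0.36). Its reference transcript alone went the other way, with 0.207, 0.335 and 0.480 in fetal ventricle and 0.764, 0.736 and 0.525 in sham.

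Inward rectifiers hold the resting potential or couple it to metabolism and receptors. Kcnj8, the pore of vascular ATP-sensitive channels, had 9.62, 12.6 and 12.1 in fetal ventricle, 35.2, 40.3 and 32.4 in TAC and 38.3, 37.3 and 44.8 in sham. The sham mean was 3.51 times the fetal mean and no fetal library reached an adult one (-1.73 ± 0.16, adjusted p = 5.27e-05; chr4:180143300-180149989). On its reference transcript alone fetal ventricle had 9.62, 12.6 and 9.72 and TAC had 24.0, 12.2 and 26.3, which overlapped. There the difference from TAC was not called by limma (-0.85, adjusted p = 0.103), while that from sham still was. Kcnj8 is a gene of pericytes and smooth muscle. The 3 pericyte markers with a locus were not called (summed 58.1 to 75.9 in fetal libraries, 48.6 to 72.8 in TAC, 48.6 to 79.1 in sham), and of 3 smooth muscle markers 2 were higher in fetal (summed 1566 to 1918 in fetal libraries, 128 to 223 in TAC, 129 to 320.0 in sham). The part of these cells in the difference was not tested. Kcnj5, a subunit of the acetylcholine-activated channel, had 21.9, 17.8 and 20.9 in fetal ventricle and 27.2, 18.5 and 13.9 in sham, and did not differ beyond the spread (0.07, adjusted p = 0.85). Kcnj14 averaged 1.83 ± 0.63 in fetal ventricle and 1.84 ± 0.172 in sham (SD, n = 3 each; -0.03, adjusted p = 0.95).

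Among calcium-activated potassium channels Kcnn2, the small-conductance pore best known from atria, was higher in fetal ventricle. It had 3.47, 8.58 and 4.98 in fetal ventricle, 0.703, 0.912 and 2.32 in TAC and 2.68, 1.01 and 0.992 in sham. The fetal libraries lay above all adult ones (1.37 ± 0.40, adjusted p = 0.0222), but without fetal 2, fetal 3, sham 2 or sham 3 the call was lost (0.0563 to 0.0831), as it was on reference transcripts alone (0.11). Markers of atrial and conduction tissue also differed: 3 of 6 tested were higher in fetal, and the atrial myosin light chain Myl7 had 488, 607 and 299 in fetal ventricle, 1052, 145 and 104 in TAC and 73.9, 79.3 and 1.202 in sham. The other tested markers, Sln (-0.61), Tbx3 (-0.76) and Dkk3 (0.21), were not called between fetal and sham. What part atrial and conduction tissue plays in Kcnn2 was not tested. Kcnmb1, the smooth muscle beta subunit of the large-conductance channel, had 1.95, 0.920 and 2.04 in fetal ventricle and 5.02, 3.35 and 2.39 in sham. The groups did not overlap, and the difference was not called (-0.79 ± 0.30, adjusted p = 0.0591). Kcnn4, of blood and immune cells, averaged 1.76 ± 0.606 in fetal ventricle and 2.78 ± 1.299 in sham (SD, n = 3 each), with overlapping groups. Kcnn3, Kcnmb2 and Kcnmb4 also overlapped between fetal and sham and were not called (adjusted p 0.16 to 0.54).

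Calcium channel genes with a symbol were mostly accessory subunits. Cacnb3, a cytoplasmic beta subunit that brings pores to the membrane, had 3.51, 3.09 and 4.41 in fetal ventricle, 2.82, 2.29 and 2.82 in TAC and 2.42, 1.71 and 1.86 in sham. Fetal ventricle was higher than sham by a small margin (0.64 ± 0.21, adjusted p = 0.0337). The call was lost without any of the 3 fetal libraries, sham 2 or sham 3 (0.0516 to 0.142). It was also lost on reference transcripts alone (0.44), on replicates 2 and 3 alone (0.0848) and with equal library totals (0.0511). Cacng6, a gamma subunit of muscle, averaged 8.74 ± 1.66 in fetal ventricle and 10.01 ± 3.77 in sham (SD, n = 3 each; -0.13, adjusted p = 0.78). Cacng7, better known from brain, lies 55.0 kb from Cacng6. It had 0.0805, 0 and 0.262 in fetal ventricle, 0, 1.81 and 1.3 in TAC and 2.73, 0.874 and 1.68 in sham. It was lower in fetal ventricle than in sham (-1.26 ± 0.42, adjusted p = 0.0381), on at most 18 fragments per library, and not with replicate number as a block (0.0538). Leaving out any fetal library, sham 1 or sham 3 also ended the call (0.0779 to 0.115).

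Clc proteins are chloride channels or chloride-proton exchangers, and here the genes described split. Clcn4-2 (Clcn4), an endosomal exchanger, had 0.557, 0.603 and 0.582 in fetal ventricle, 19.8, 20.3 and 18.9 in TAC and 18.2, 19.1 and 23.4 in sham. The sham mean was 34.8 times the fetal mean (-3.74 ± 0.16, adjusted p = 1.98e-06; chrX:44355648-44419523). Clcn5, the close relative of Clcn4 in endosomes, had 26.4, 12.5 and 16.3 in fetal ventricle, 1.42, 0.499 and 0.639 in TAC and 1.74, 1.36 and 1.69 in sham. It was higher in every fetal library (2.84 ± 0.30, adjusted p = 0.00014; chrX:27356623-27409877).

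The fetal value of Clcn5 rested on transcripts assembled from the reads, as the plot of reference and assembled parts shows. Its 2 reference transcripts, ENSRNOT00000003895 and ENSRNOT00000041437, were listed at 0 in all fetal libraries and held the whole value in all adult libraries. The assembled transcripts with a value above 0 were 7362 nt long in fetal 1, 7350 nt in fetal 2, and 8449 and 6585 nt in fetal 3, against 2550 nt for the longest reference transcript, and all ended 4.6 to 5.8 kb past the reference locus. In fetal 2 and fetal 3 the longest began 95.3 and 93.4 kb before it. RefSeq lists 2 starts of Clcn5, shown above, 122.7 kb apart in GRCr8. Fetal libraries held 3191, 1175 and 2371 fragments of the locus, against 16, 5 and 13 in TAC and 43, 27 and 53 in sham, not adjusted for depth or transcript length. Counted on reference transcripts alone, Clcn5 was lower in fetal ventricle than in sham (log2 difference -1.37, adjusted p = 0.0111). That count leaves out all of the fetal value, so the sign of the fitted difference depends on counting the assembled transcripts.

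**Figure D2:**
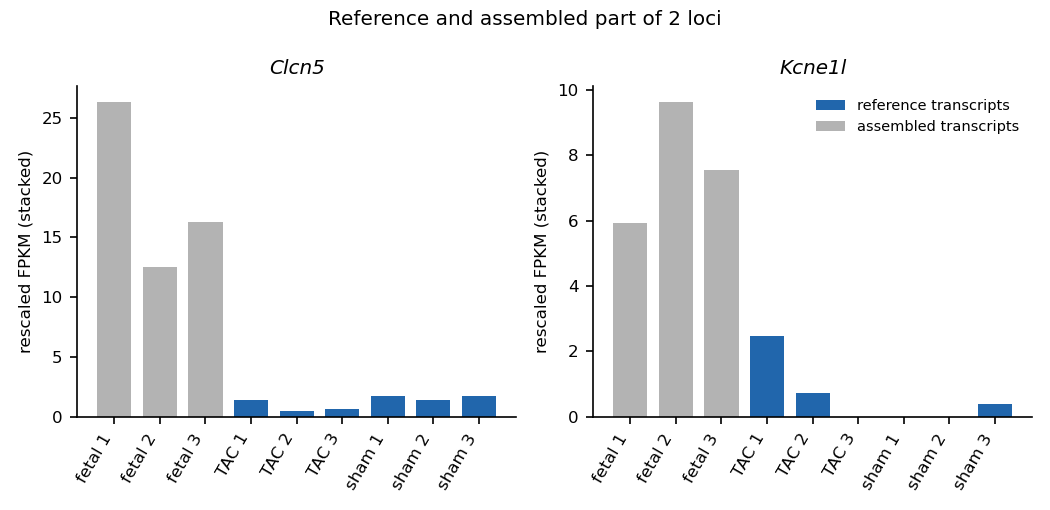
Rescaled FPKM of Clcn5 and Kcne1l by library, stacked from reference transcripts (blue) and transcripts assembled from the reads (grey). In both genes the fetal bars are assembled throughout and the adult bars are reference throughout.

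Of the channel genes, 57 did not reach the filter. Of these 13 were at 0 in all 9 libraries, 13 were above 0 in fetal libraries only, 3 in adult libraries only and 28 at both ages. These counts are not adjusted for depth, which by fragments per tested locus was greater in fetal libraries, and were not made over all loci. Among the fetal-only genes, Cacna2d4, Cacng2, Kcna1 and Kcnh6 rested on 1 fragment each. Just outside the filter, by third-highest value, were Kcnab2 (0.996), Scn3a (0.953) and Kcna3 (0.938), and just inside were Kcnj15 (1.10) and Kcnab1 (1.18). None of the 9 tandem-pore potassium channels (Kcnk), and neither pacemaker channel with a symbol was tested. Kcnk1, a background potassium pore, held 8, 12 and 20 fragments in fetal libraries, 8, 0 and 1 in TAC and 10, 3 and 0 in sham. Kcnab2, a beta subunit of Kcna pores, held 0, 27 and 0 in fetal libraries, 11, 3 and 5 in TAC and 36, 11 and 25 in sham. Kcne2, a partner of Kcnh2, held 4 in each fetal library, 2, 7 and 0 in TAC and 0 in all sham libraries. Cacnb4, Kcnc1, Kcnj4 and Kcnt1 held at most 12 fragments in any library.

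Fragments of 6 weak genes are given here, chosen after their values were seen and without a test. Fragments are not adjusted for depth, which was greater in the fetal libraries. Kcnab3, a beta subunit of Kcna pores, held 28, 40 and 63 fragments in fetal libraries and 0 in all 6 adult libraries. Kcna6, a Kv pore, held 52, 21 and 57 in fetal libraries, 0 in all TAC libraries and 0, 4 and 0 in sham. Cacna1b, the neuronal N-type calcium pore, held 18, 14 and 31 in fetal libraries and 0 in all adult ones. Both Kcnab3 and Cacna1b were thus seen in every fetal library and in no adult one, where a count of 0 allows up to 3 fragments. The transcripts seen differed between fetal libraries. In fetal 1, 91.1% of the Cacna1b value lay in a transcript of 334 nt that was at 0 in fetal 2 and fetal 3. Assembled transcripts made up 61.5% of Kcnab3 in fetal 2 and 43.6% in fetal 3, and 100% of Kcna6 in fetal 1 and 51.7% in fetal 3. Kcna3, a pore of lymphocytes and macrophages, held 30, 14 and 24 fragments in fetal libraries, 5, 8 and 4 in TAC and 4, 1 and 10 in sham. In rescaled FPKM it stood at 1.15, 0.615 and 0.938 in fetal libraries, 0.905, 1.06 and 0.262 in TAC and 0.321, 0.082 and 0.476 in sham, so fetal and TAC overlapped. Of immune markers, 6 of 6 macrophage and 4 of 5 lymphocyte genes were lower in fetal than in sham, and their part in Kcna3 was not tested.

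The silent pore subunit Kcnv1 held 35, 3 and 5 fragments in fetal libraries, the delayed rectifier Kcnb2 15, 2 and 6, and both 0 in every adult library. Fetal 1 held the most of both genes. Neural and Schwann cell markers summed to 45.3 to 61.2 in fetal libraries, 14.4 to 32.4 in TAC and 15.9 to 36.2 in sham. Of 8 tested markers 1 (Uchl1) was higher and 3 were lower in fetal than in sham, and Uchl1, with 49.7, 36.1 and 41.7, made up most of the fetal sums. The neuronal Stmn2 stood at 2.05, 0.503 and 0.551 in fetal libraries, highest in fetal 1 as were Kcnv1 and Kcnb2, and Snap25 at 0.029, 0 and 0.0189, and both were at 0 in all adult libraries. Their part in these weak genes was not tested.

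**Figure D3:**
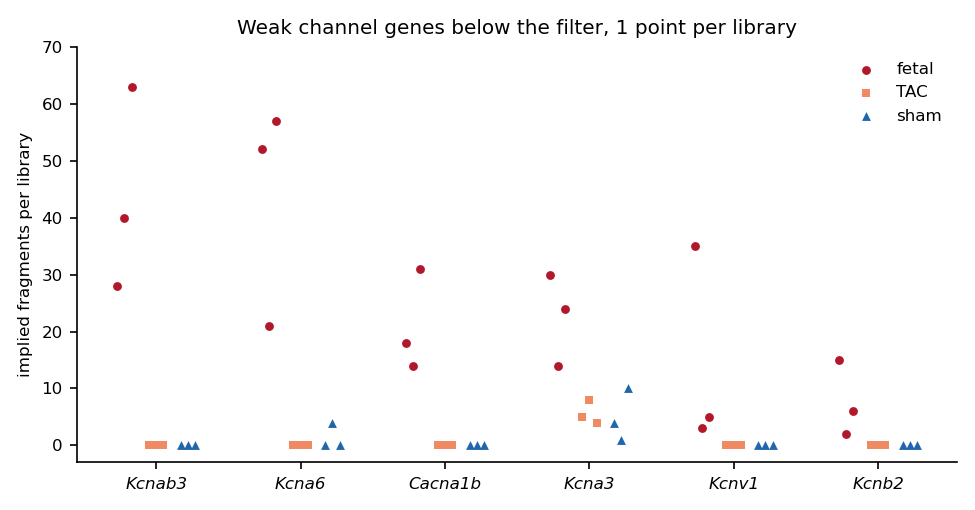
Fragments implied by the deposited confidence bounds for 6 weak channel genes below the filter, 1 point per library, not adjusted for depth. Fetal points reach 63 fragments for Kcnab3 and 57 for Kcna6, while adult points stay at or below 10.

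Between TAC and sham, none of the 40 channel genes was called by limma, and none had an unadjusted p below 0.05, where 0.0142% of all loci were called and 4.33% had an unadjusted p below 0.05. The log2 differences ran from -0.52 to 0.70 with a median of -0.04, against -0.01 over all loci. In 3 genes the TAC and sham libraries did not overlap (1 higher, 2 lower), against 8.87% of all loci (4.29% higher, 4.58% lower). None of the 18 alternative settings called a channel gene in this comparison.

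The smallest p belonged to Kcna4, with 4.05, 5.81 and 3.46 in TAC and 2.999, 2.79 and 2.82 in sham. All TAC libraries lay above all sham libraries (0.47 ± 0.22, unadjusted p = 0.0604 from limma, adjusted p = 1). Kcnq1 had 44.5, 49.2 and 40.2 in TAC and 52.7, 52.1 and 53.4 in sham, with every TAC library lower (-0.24 ± 0.13, unadjusted p = 0.0963 from limma). Kcnip2 was the third gene without overlap, with 722, 589.8 and 586 in TAC and 1027, 807 and 805 in sham (-0.47 ± 0.37, unadjusted p = 0.24 from limma). None of these 3 differences passed the test. In sham 1 the value of Kcnip2 included 346 from assembled transcripts. On reference transcripts alone Kcnip2 had 722, 589.8 and 586 in TAC and 681, 807 and 805 in sham, which overlapped. Kcnq1 overlapped there as well, with 0, 25.6 and 40.2 in TAC and 52.7, 26.8 and 39.2 in sham, while Kcna4 did not.

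Other genes with small p overlapped between the groups. Kcnrg, a suppressor of Kv pore assembly, had 3.32, 2.46 and 2.02 in TAC and 1.13, 2.33 and 0.929 in sham (0.57). Clcn5 had 1.42, 0.499 and 0.639 in TAC and 1.74, 1.36 and 1.69 in sham (-0.52), Kcne3 differed by -0.52 and Cacnb3 by 0.29. Kcne1l, high in fetal ventricle, had 2.46, 0.726 and 0 in TAC and 0, 0 and 0.402 in sham (0.70), on at most 5 fragments per library. Its highest adult value was in TAC 1, the library that was also highest of the adult libraries in Myl7 (1052) and in the atrial peptide Nppa (1753). The part of atrial tissue in that value was not tested.

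**Figure D4:**
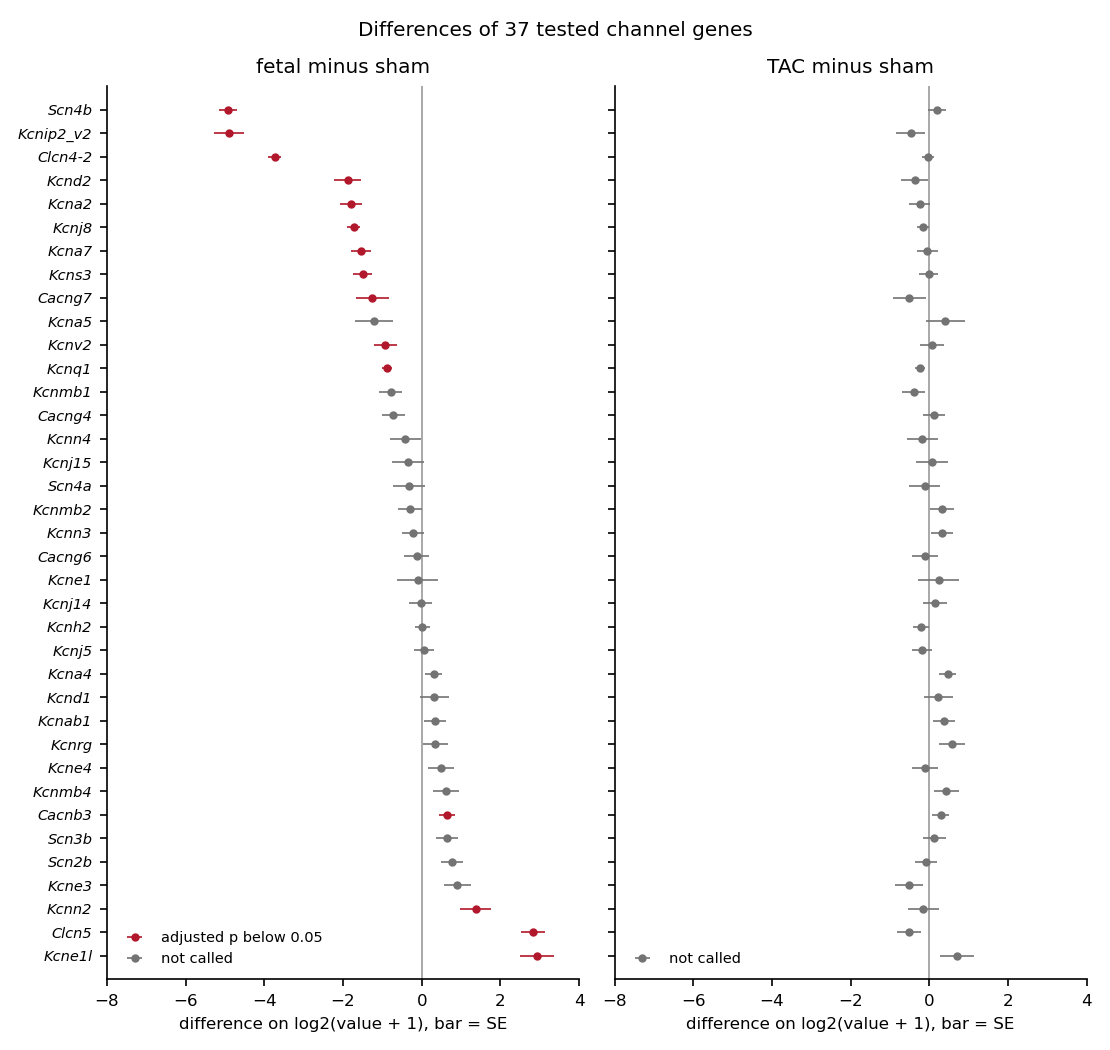
Difference on log2(rescaled FPKM + 1) with its SE for 37 of the 40 tested channel genes, fetal minus sham on the left and TAC minus sham on the right, in the same order and on the same scale. Fetal differences run from -4.92 to 2.94 with 15 called in red, and TAC differences stay between -0.52 and 0.70 with none called.

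Between fetal and TAC ventricle, 20 of 40 channel genes were called, 5 higher and 15 lower in fetal, where 45.8% of all loci were called, 22.8% higher and 23% lower. In 25 genes the groups did not overlap (8 higher, 17 lower), against 56.1% of all loci (28.4% higher, 27.7% lower). This comparison shares the fetal libraries with the one against sham. Scn4b (-5.11), Kcnip2 (-4.43) and Clcn4-2 (-3.71) fell strongly, and Clcn5 (3.36, but -0.86 on reference transcripts alone) and Kcne1l (2.24) rose. Kcna5 (-1.62, adjusted p = 0.0253), Scn2b (0.86, adjusted p = 0.0333), Kcne3 (1.43, adjusted p = 0.0103) and Cacng4 (-0.83, adjusted p = 0.0409) passed here and not against sham. Cacng7 (-0.75, adjusted p = 0.18) and Cacnb3 (0.35, adjusted p = 0.2) passed against sham and not here. Whether the comparisons differ for these 6 genes was not tested. Without single libraries several of these calls changed. Kcna5 was not called without fetal 2, fetal 3 or TAC 2 (adjusted p 0.0687 to 0.0824). Scn2b was not called without any fetal library, TAC 2 or TAC 3 (0.0539 to 0.116), and Cacng4 without any fetal library, TAC 2, TAC 3 or sham 3 (0.0573 to 0.135). On reference transcripts alone neither Scn2b (0.30, adjusted p = 0.656) nor Kcne3 (1.07, adjusted p = 0.21) was called by limma. Kcnn2 (adjusted p = 0.0748), Kcna2 (0.0674), Kcnj8 (0.103) and Kcnv2 (0.108) lost their calls there as well. Kcnn3 gained a call there (-2.09, adjusted p = 0.0439), with fetal 1 and fetal 3 at 0 on its reference transcript. Kcnv2 (-0.99) lost its call without fetal 2, fetal 3 or TAC 1 (0.0676 to 0.0991), with equal library totals (0.0557) and on replicates 2 and 3 alone (0.0881). Kcnn2 (1.52) lost its call without fetal 2 (0.0552). Cacng7 gained one without TAC 1 (0.0219), the library in which it was listed at 0. Kcnq1 (-0.65, adjusted p = 0.00352) was not called with libraries scaled to equal totals (0.0956).

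At the level of single reference transcripts, 36 transcripts of 32 channel loci were tested. Of these 9 were called between fetal and sham, all lower in fetal, against 13.1% of 13971 transcripts (8.32% lower), and 8 between fetal and TAC, also all lower, against 13.6% (8.74% lower). Beside the 3 of Kcnip2 described next, those lower than in sham included transcripts of Scn4b (-5.02), Clcn4-2 (-3.82), Kcnj8 (-1.83), Kcna7 (-1.55) and Kcns3 (-1.50). The transcript of Kcns3 was not called with replicate number as a block (adjusted p = 0.0713), without any fetal or sham library or TAC 3 (0.0531 to 0.12), with equal totals (0.075), with no filter (0.0688) or on replicates 2 and 3 alone (0.15). That of Kcna7 was not called without any fetal library, sham 2 or sham 3 (0.0597 to 0.0915), with no filter (0.0967) or on replicates 2 and 3 alone (0.0908), and that of Kcnj8 not on replicates 2 and 3 alone (0.0799). Against TAC, Kcns3 lost its call without any library but TAC 2 (0.0542 to 0.119), and Kcna7 without any fetal library, TAC 2 or TAC 3 (0.0628 to 0.1). Between TAC and sham none was called by limma (0.351% of all transcripts were) and 1 had an unadjusted p below 0.05 (4.92% of all transcripts), that of Kcnj8. Its transcript ENSRNOT00000018057 had 24.0, 12.2 and 26.3 in TAC and 38.3, 37.3 and 44.8 in sham. In TAC a further 11.1, 28.1 and 6.04 lay in assembled transcripts, with which the locus had 35.2, 40.3 and 32.4.

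Transcripts known from the reference carried most of the adult level of Kcnip2. The transcript ENSRNOT00000024709 was listed at 0 in all fetal libraries and had 221, 140 and 160.1 in TAC and 172, 247 and 127 in sham (fitted log2 difference -7.46, adjusted p = 1.14e-05). Since a transcript's 0 can be a failed estimate, and 3 such values have no spread, its SE is not shown. ENSRNOT00000024750 had 13.7, 24.2 and 29.1 in fetal libraries, 412, 264 and 300.1 in TAC and 395, 446 and 206 in sham. ENSRNOT00000048592 had 0, 14.2 and 13.0 in fetal libraries, 88.2, 186 and 126 in TAC and 114, 115 and 473 in sham. Both were lower in every fetal library than in any adult library (adjusted p = 0.000493 and 0.0187 against sham). The call of ENSRNOT00000048592 was lost without sham 3 (0.0627), with a pseudocount of 0.1 (0.0666) and with only the libraries compared (0.0557), and against TAC without any TAC library (0.0556 to 0.0896). Its log2 difference from sham was -4.95, and -3.66 without fetal 1, where it was listed at 0.

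As shares of the locus, ENSRNOT00000024750 made up 100%, 63.0% and 69.0% in fetal libraries, 57.1%, 44.8% and 51.2% in TAC and 38.5%, 55.2% and 25.6% in sham. ENSRNOT00000024709 made up 0% in all fetal libraries, 23.7% to 30.7% in TAC and 15.7% to 30.6% in sham. Neither share was called between fetal and sham (adjusted p = 0.32 and 0.145). Of 12 channel shares tested, 1 was called against sham and 2 against TAC, all of Clcn5. ENSRNOT00000003895 was called in both comparisons (adjusted p = 0.0235 against sham, 0.0269 against TAC), with 1.58% of all 6450 shares called against sham and 1.97% against TAC. Between TAC and sham no channel share was called by limma or had an unadjusted p below 0.05, against 0.0465% and 5.8% of all shares. That share was 0% in all fetal libraries, where assembled transcripts took the whole locus, 49.9%, 49.9% and 100% in TAC and 100%, 49.8% and 100% in sham. With replicate number as a block it was not called (0.0933 and 0.0823), nor without any fetal library (0.0736 to 0.104). Leaving out any sham library ended the call against sham (0.0659 to 0.0799), and leaving out TAC 2 or TAC 3 that against TAC (0.0703 and 0.061). ENSRNOT00000041437 of Clcn5 was called against TAC alone (adjusted p = 0.0351), and not with the block (0.0881) or without any fetal library, any TAC library or sham 3 (0.0554 to 0.133).

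**Figure D5:**
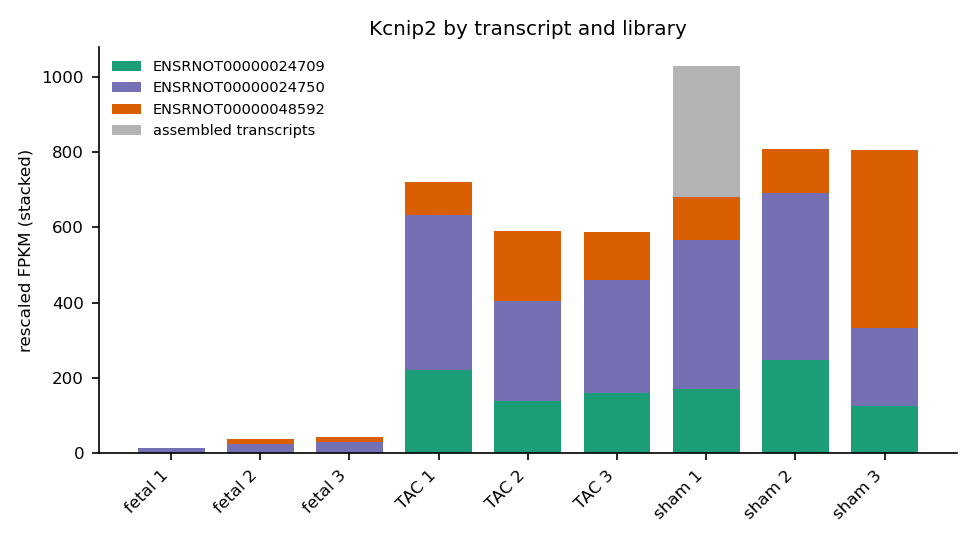
Kcnip2 in each library as stacked rescaled FPKM of its 3 expressed reference transcripts and of assembled transcripts. Fetal bars reach 42.1 and lack the green transcript ENSRNOT00000024709, adult bars reach 586 to 1027, and the grey assembled part occurs in sham 1.

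Other genes of cardiac excitation were read from a list of 94, of which 45 had a locus and 39 were tested. Between fetal and sham 6 were higher and 18 lower, with a median of -0.40, where 22.5% of all loci were higher and 23.2% lower with a median of 0.04, and between TAC and sham none was called. Gja5, a connexin of atria and the conduction system, had 106, 86.2 and 71.3 in fetal ventricle and 8.26, 7.55 and 6.53 in sham (3.38). The other connexins tested, Gja1 (-0.40) and Gjd3 (0.14), were not called. Among partners of the sodium channel, Fgf12 had 8.44, 8.43 and 5.94 in fetal ventricle and 99.3, 95.6 and 63.8 in sham (-3.33), and Rangrf, a trafficking factor, was lower as well (-1.82). Of the 6 channel scaffolds and partners tested, 3 were lower in fetal and 2 higher, Akap7 (1.55) and Gem (1.44). Of further marker lists, erythroid (3 of 4) and epicardial (2 of 3) genes were higher in fetal than in sham, and endothelial (3 of 4) and fibroblast (4 of 5) genes lower.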

How the data were processed

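Per the submitters' processing notes, the authors aligned reads to the rat build rn4 with TopHat 1.3.1 and ran Cufflinks 1.0.3 and Cuffdiff. The deposited FPKM values of genes and isoforms, with confidence bounds, carry a further constant in each library, so they were rescaled by the median of ratios over 13167 loci above 0 in all libraries, to a mean total of 1e6. Libraries were assembled separately and gene names differ between them. Values were therefore joined through 39492 reference transcripts, grouped into a locus when at least 5 libraries gave them the same gene, and a locus sums its reference and assembled transcripts. Symbols are the files' own, and some genes counted in the totals are not reported here. Fragments were estimated from the bounds (the value ± 2 SD), and 83.8% to 93.0% of low values came out whole within 0.05.

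Loci with 1 or more in 3 libraries were fitted together on log2(value + 1) with limma 3.58.1 (trend, 6 residual degrees of freedom, 3 libraries per group, threshold 0.05). Shares were tested as log2((transcript + 1)/(rest + 1)) at a locus mean of at least 3 and a mean share of 5% to 95%. The fit was tested on simulated data. Named are the channels of a list of ventricular action potential genes, the 10 largest called rises and falls between fetal and sham, the 8 smallest p between TAC and sham, and called transcripts. Members and lists were chosen with earlier results of these data known. After removal of group means, libraries of the same number correlated in every pair of groups (0.15 to 0.52). But libraries 2 and 3 of different groups correlated alike (0.13 to 0.28), and mainly number 1 stood apart. The main fit did not pair libraries by number. The number entered only in alternatives, as a block or by using numbers 2 and 3 alone. Alternatives were equal library totals, a pseudocount of 0.1, a filter of 5 or none, a replicate block, fewer libraries, reference transcripts only and no trend. Intervals of depth cover counting error only.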

Additional observations from a re-analysis of the deposited data

How the results depend on the processing

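Of the channel loci, 18 were called between fetal and sham and 20 between fetal and TAC. A filter of 5 gave 11 and 11, with fewer genes tested, and reference transcripts only gave 8 and 7. The replicate block gave 17 and 20, replicates 2 and 3 alone 16 and 15, and leaving out 1 library at a time 14 to 19 and 15 to 20. Counted on reference transcripts only, Clcn5 turned to -1.37 against sham and -0.86 against TAC, Kcnd2 to 0.0099 against TAC and Kcnq1 to 1.36 against TAC, none of them called beside the first. For Clcn5 this leaves out all of the fetal value, and the cause of the others was not tested. Channel transcripts called between fetal and TAC numbered 8, and 5 with replicates 2 and 3 alone. Channel shares called between fetal and sham numbered 1, then 0 with a filter of 5, the replicate block, replicates 2 and 3 alone or reference transcripts only, 2 without a filter and 0 to 1 leaving out 1 library. Between fetal and TAC they numbered 2, then 1 with a pseudocount of 0.1 or only the libraries compared, 0 with a filter of 5, the replicate block, replicates 2 and 3 alone or reference transcripts only, 4 without a filter and 0 to 2 leaving out 1 library. Beside Cacng7, Kcnv2, Kcne3, the Kcns3 transcript and the Clcn5 shares, the block changed no call. The loci of Scn4b, Clcn4-2, Kcnip2, Kcna7 and Kcns3 were called against sham and against TAC under all alternatives that gave a value. Depth limits weak genes, most in TAC.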

Other observations

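Some channel genes lie side by side in the rat genome. Within 100 kb of each other in rn4 there were 8 neighbouring pairs, and in 2 of them both genes were tested. Scn2b and Scn4b, 12.9 kb apart on chromosome 8, had log2 differences of 0.77 and -4.92 between fetal and sham. Cacng6 and Cacng7, 55.0 kb apart on chromosome 1, had -0.13 and -1.26. Differences between neighbours were not tested.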
